A study of Mus musculus with 24 samples.

Results

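Microglia taken from Cre- mice 6 weeks after the end of cuprizone feeding were set against microglia of naive Cre- mice. The comparison rests on 6 of the 24 libraries of the study, 3 remyelination libraries with tamoxifen given at the start and 3 naive libraries, chosen by their labelled genotype, state and tamoxifen timing. It concerns which genes still differed from the undamaged brain after the return to normal diet. In the study, brain microglia were sorted as CD45int CD11b+ cells and their total RNA was sequenced with an ultra-low input library kit, in 8 groups of 3. Cre- mice lack the creERT2 recombinase at the Cx3cr1 locus, so tamoxifen deletes no Dicer1 in them, although these animals belong to the Dicer1 deletion line and received the drug. The remyelination mice had 6 weeks of cuprizone and then 6 weeks of normal diet. Naive mice had tamoxifen only, labelled as given at the start. The demyelination mice named next are also labelled with tamoxifen at the start. Other conditions of the study serve for comparison: Cre- mice at the end of 6 weeks of cuprizone (demyelination), Cre- mice in remyelination that had tamoxifen in week 5 of cuprizone (the peak), and Cre+ mice, which carry creERT2, in the start-tamoxifen remyelination and naive states. The labels give neither the age nor the sex of the animals, and no naive group of the same age as the remyelination group is labelled.

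Cuprizone is a copper chelator that kills oligodendrocytes, the myelinating cells of the brain, and axons are remyelinated once it is withdrawn. Microglia, the resident macrophages of the brain, clear myelin debris during this time; they lower homeostatic genes such as P2ry12 and raise a set of lipid-handling and phagocytic genes known as the disease-associated programme, which depends on the receptor Trem2 and its ligands, among them Apoe. MHC class II proteins present antigen to CD4 T cells under control of the transactivator Ciita, and interferon-stimulated genes encode antiviral proteins that are also raised in subsets of microglia after demyelination.

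The libraries of the remyelination state and those of the naive state came as separate sets, and this split cannot be told apart from the state. Totals were 8.87, 10.07 and 10.65 M counts in remyelination libraries, against 19.48, 40.66 and 33.51 M counts in naive libraries. Over the 1000 most variable genes, principal component 1 held 43.4% of the variance and put all 12 remyelination libraries of the study (22.97 to 40.57) apart from all 12 naive and demyelination libraries (-39.86 to -28.24). Processed pseudogenes took 0.213 to 0.246% of counts in the remyelination libraries, against 0.068 to 0.083% in naive libraries. The 100 most abundant genes took 26.7 to 27.5% of counts in remyelination libraries and 32.2 to 33.5% in naive libraries. The labelled cell type was borne out by the defining markers: Cx3cr1, P2ry12 and Tmem119 stood at no less than 2593 CPM in any library of either group, CPM being counts scaled to a fixed sum per library. CPM use library sizes scaled by the TMM method. The share of a gene can fall because fewer cells express it or because each cell holds less of its RNA, which bulk libraries cannot tell apart.

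The promoters of the antigen presentation and interferon genes are shown first because members of these lists with the same short motif moved differently. The 150 bases before the RefSeq start are given 5′ to 3′ on the gene's strand (RefSeq, GRCm38.p6), with the motif in capitals: CCAAT on either strand in MHC class II genes, the core of the Y box of their promoters, and GAAA-NN-GAAA on either strand in interferon genes, the core of the interferon-stimulated response element. H2-Aa and H2-Eb1 rose, and H2-DMb1 fell.
H2-Aa, chr17:34287824-34287973, minus strand: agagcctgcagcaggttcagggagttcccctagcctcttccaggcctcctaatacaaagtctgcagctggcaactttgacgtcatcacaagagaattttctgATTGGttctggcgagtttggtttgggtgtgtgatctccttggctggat
H2-Eb1, chr17:34305717-34305866, plus strand: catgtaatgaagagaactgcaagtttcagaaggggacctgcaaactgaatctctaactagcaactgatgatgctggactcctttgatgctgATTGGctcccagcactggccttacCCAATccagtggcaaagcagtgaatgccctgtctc
H2-DMb1, chr17:34153041-34153190, plus strand: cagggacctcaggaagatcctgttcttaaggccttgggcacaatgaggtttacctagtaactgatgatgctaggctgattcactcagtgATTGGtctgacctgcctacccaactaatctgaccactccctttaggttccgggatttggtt
Oas3 and Ifi207 rose, and Ifit1 and Isg15 did not pass the test.
Oas3, chr5:120777660-120777809, minus strand: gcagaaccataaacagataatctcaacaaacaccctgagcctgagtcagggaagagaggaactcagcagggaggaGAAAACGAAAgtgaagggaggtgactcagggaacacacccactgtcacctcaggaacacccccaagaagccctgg
Ifi207, chr1:173741810-173741959, minus strand: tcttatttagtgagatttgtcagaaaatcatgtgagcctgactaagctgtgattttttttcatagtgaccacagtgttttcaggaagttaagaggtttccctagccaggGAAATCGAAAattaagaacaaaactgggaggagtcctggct
Ifit1, chr19:34640739-34640888, plus strand: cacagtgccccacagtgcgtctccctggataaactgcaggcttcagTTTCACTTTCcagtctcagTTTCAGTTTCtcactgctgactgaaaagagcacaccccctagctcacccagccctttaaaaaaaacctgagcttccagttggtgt
Isg15, chr4:156200819-156200968, minus strand: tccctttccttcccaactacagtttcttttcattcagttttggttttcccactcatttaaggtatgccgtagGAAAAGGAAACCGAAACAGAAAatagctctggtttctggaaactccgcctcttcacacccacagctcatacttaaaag
In the 250 bases before the start, CCAAT was found in 4119 of the 11436 tested genes with a RefSeq promoter (36%). Of the 9 tested MHC class II genes 6 had a RefSeq promoter, and 5 of these held CCAAT, including both that rose and 3 of the 4 that did not. GAAA-NN-GAAA was found in 321 of the 11436 promoters (2.81%). Of 30 interferon genes 19 had a RefSeq promoter and 10 of these held it, 5 of the 10 that rose and 5 of the 9 that did not. Matches of a motif can overlap each other, as the 3 in Isg15 do. A match describes the letters of this window and is not evidence of a bound factor.

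Dicer1, the ribonuclease that cuts miRNA precursors, checks the genotype labels only in part, because the labels do not say which exons are deleted and counts are summed over the gene. It stood at 33.9, 39.1 and 34.8 CPM in remyelination libraries, against 18.6, 11.1 and 12.1 CPM in naive libraries, without overlap. The log2 fold change was 1.39 ± 0.17 (± SE; edgeR quasi-likelihood test, Benjamini-Hochberg adjusted p = 1.73e-07), and 2.61-fold on the linear scale; corrected for GC content and length of the transcript, the log2 value was 0.78. In Cre+ mice Dicer1 stood at 32.8, 32.4 and 35.2 CPM in remyelination libraries and 21.8, 22.1 and 24.3 CPM in naive libraries. In the naive state every Cre+ library was above every Cre- library, and in remyelination the genotypes overlapped. Cx3cr1, the fractalkine receptor whose locus carries creERT2 in Cre+ mice, stood at 7369, 6510 and 7932 CPM in remyelination libraries, against 9273, 9692 and 12250 CPM in naive libraries. Its groups did not overlap, but the difference of -0.52 ± 0.94 did not pass the test (adjusted p = 0.663), in which the spread is shared with the Cre+ groups; with the 6 libraries alone the value was -0.47 (adjusted p = 0.00881).

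Remyelination and naive microglia differed at most genes tested. Of 17579 genes, 9881 passed the test (56.2%): 5062 were higher in remyelination (28.8%) and 4819 lower (27.4%). At least 2-fold differences were mostly rises, 3285 genes higher (18.7%) and 506 lower (2.88%). The median log2 fold change over all genes was 0.08, with a median SE of 0.20. The direction of the calls moved with the abundance, length and GC content of the transcripts. Among genes with a mean log2 CPM under 0, the median log2 fold change was 1.05 and 37.8% were called higher, while above 8 it was -0.44 and 64.6% were called lower. Among genes of log2 CPM 3 or more, transcripts of 1 to 2 kb had a median of -0.59 with 72.4% lower, and transcripts over 8 kb had a median of 0.46 with 61.2% higher. By GC content the medians were -0.44 under 40% and 0.06 above 60%. The part of these trends in each gene's difference was not tested, so values corrected for GC content and length are given where they end a call, turn a direction or move a value by more than 1.5 times. With that correction 9098 genes passed, 7340 of them shared with the 9881 and 7271 of those in the same direction; of the 3791 genes called at 2-fold or more, 3356 remained called.

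**Figure D1:**
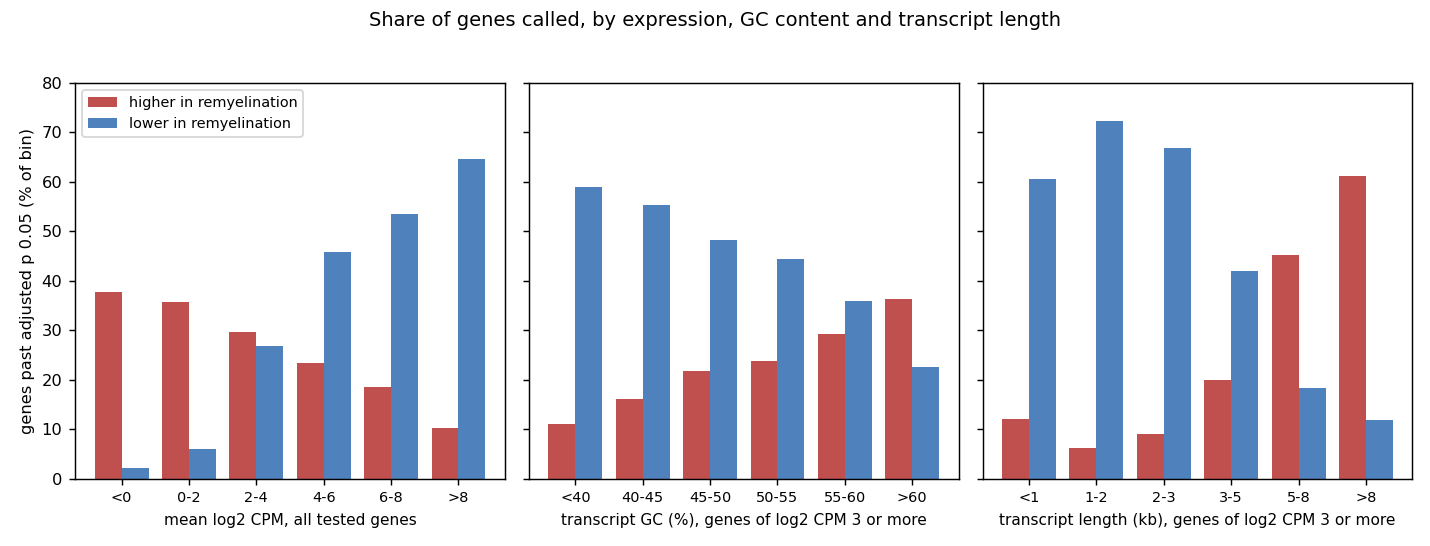
Share of genes called higher or lower in remyelination than in naive Cre- microglia (y axis, percent of the genes in a bin, adjusted p of 0.05), by mean log2 CPM over all tested genes (left), and by GC content (middle) and transcript length (right) among genes of log2 CPM 3 or more. Lower calls make up 64.6% of the most abundant genes and 72.4% of transcripts of 1 to 2 kb, and higher calls 61.2% of transcripts over 8 kb.

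Among protein-coding genes of mean log2 CPM 3 or more without overlap between groups, Cebpb had the largest rise. Cebpb (ENSMUSG00000056501, GRCm38 chromosome 2, 167688915 to 167690418), a transcription factor of myeloid differentiation and inflammation, stood at 115, 162 and 86.9 CPM in remyelination libraries, against 4.06, 0.716 and 0.627 CPM in naive libraries. The groups did not overlap, and the log2 fold change was 6.32 ± 1.08 (edgeR, adjusted p = 0.000105). It depended on naive replicate 1, the highest of the naive libraries: without it the value was 7.49, and with GC content and length corrected it was 5.36. F13a1, the A subunit of coagulation factor XIII, stood at 120.5, 104 and 110.0 CPM in remyelination libraries, against 3.13, 2.73 and 2.47 CPM in naive libraries (5.34 ± 0.31, adjusted p = 2.37e-10). All 3 remyelination libraries lay close together for this gene. Fn1, the matrix protein fibronectin, rose by 4.33 (3.63 corrected), Plbd1, a phospholipase-like protein of myeloid granules, by 3.74, Pf4, a platelet and macrophage chemokine, by 3.69, Cybb, the catalytic subunit of the phagocyte NADPH oxidase, by 3.58, and Ms4a7, a membrane protein of macrophages, by 3.46. Ano8, a member of the anoctamin family, rose by 3.50, and by 4.24 without naive replicate 1. F13a1, Pf4, Ms4a7 and Fn1 are themselves on the lists of border-associated macrophages and monocytes described further on, whose summed levels moved in the same direction.

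Among the same kind of genes the largest fall was -1.68 on the log2 scale. Hnmt, which inactivates histamine, stood at 41.1, 36.2 and 37.8 CPM in remyelination libraries, against 104, 146 and 118 CPM in naive libraries (-1.68 ± 0.14, edgeR adjusted p = 1.59e-09). The purinergic receptor P2ry12 (ENSMUSG00000036353, GRCm38 chromosome 3, 59216272 to 59262871), by which microglial processes sense ATP and ADP, stood at 4522, 3934 and 4218 CPM in remyelination libraries, against 10830, 13320 and 12020 CPM in naive libraries (-1.51 ± 0.15, adjusted p = 8.62e-09). Gpr34, a lysophosphatidylserine receptor, stood at 2017, 1849 and 1910 CPM in remyelination libraries, against 4890, 6743 and 5199 CPM in naive libraries (-1.54 ± 0.16, adjusted p = 2.28e-08). None of these 3 genes had overlapping groups. With GC content and length corrected the falls were -1.0 for Hnmt, -0.90 for P2ry12 and -0.92 for Gpr34, and each still passed. Others among the 10 largest falls were Rgs7bp (-1.67), which anchors a regulator of G protein signalling, the small GTPases Gimap9 (-1.49; -0.80 corrected) and Gimap6 (-1.45), the adaptor Grap (-1.48), the B-cell receptor chain Cd79b (-1.46), which microglia also express, Ccdc162 (-1.45) and the nuclear exosome cofactor C1d (-1.45).

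**Figure D2:**
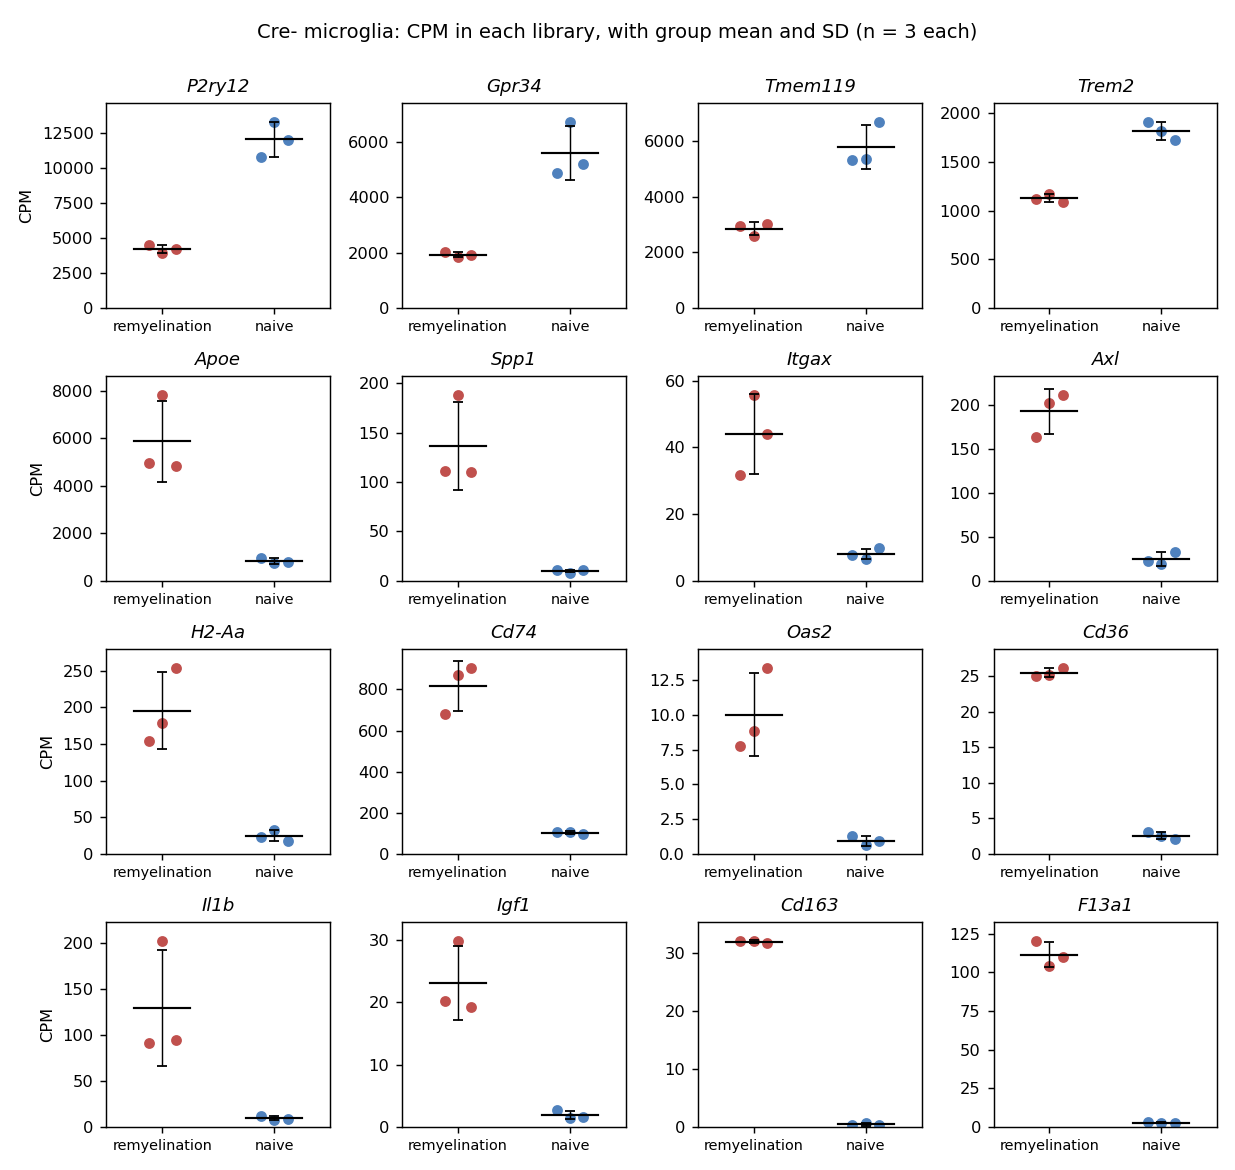
CPM (y axis) of 16 genes in each of the 3 remyelination (red, left) and 3 naive (blue, right) Cre- libraries, with the group mean as a line and the SD as a bar. P2ry12, Gpr34, Tmem119 and Trem2 are lower in remyelination and the other 12 genes higher, and no gene has overlapping groups.

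Homeostatic genes of microglia were mostly lower. Of 20 tested, 15 fell and 2 rose in remyelination, with a median of -0.79 against 0.08 over all genes. All 20 had a mean log2 CPM of 8 or more, where 64.6% of all genes were lower and the median was -0.44. P2ry13, another ADP receptor, stood at 2547, 2148 and 2357 CPM in remyelination libraries and 4671, 5617 and 5686 CPM in naive libraries (-1.18 ± 0.12, edgeR adjusted p = 1.75e-08). Tmem119, a membrane protein that sets microglia apart from other macrophages, stood at 2962, 2593 and 3003 CPM in remyelination libraries and 5327, 5362 and 6702 CPM in naive libraries (-1.02). Each of the 3 remyelination libraries was below each naive library for both genes. The Fc receptor-like gene Fcrls fell by 1.31. Sall1, a transcription factor that maintains microglial identity, rose by 0.40. The call of Sall1 was lost with GC content and length corrected (0.02, adjusted p = 0.862). In demyelination minus naive the median of the list was -0.83, with 16 members lower (16.2% of all genes) and 1 higher (19.7% of all genes), and the naive libraries are the same in both comparisons. The summed level of the 20 genes was 78640 to 81440 CPM in remyelination libraries, against 133000 to 139800 CPM in naive libraries.

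Of 25 tested genes of the disease-associated programme, 12 were higher and 8 lower in remyelination (28.8% and 27.4% of all genes). All 12 rises were at least 2-fold, and the median was 0.80 against 0.08 over all genes. The summed level of the 25 genes did not rise. It was 31260 to 38000 CPM in remyelination libraries, overlapping the 36420 to 38760 CPM of naive libraries. Apoe (ENSMUSG00000002985, GRCm38 chromosome 7, 19696109 to 19699188), the main lipid carrier secreted by glia, stood at 4941, 7824 and 4829 CPM in remyelination libraries, against 959, 759 and 781 CPM in naive libraries (2.82 ± 0.22, edgeR adjusted p = 3.95e-09). Spp1, the secreted phosphoprotein osteopontin, stood at 112, 188 and 110.1 CPM in remyelination libraries and 10.7, 8.40 and 10.6 CPM in naive libraries (3.80 ± 0.31, adjusted p = 2.24e-08; 4.43 corrected). Replicate 2 of the remyelination group was the highest for both genes. Gpnmb, a glycoprotein of lipid-laden phagocytes, stood at 23.6, 56.3 and 24.2 CPM in remyelination libraries, against 0.933, 0.556 and 1.22 CPM in naive libraries (5.29 ± 0.48, adjusted p = 8.72e-08). The integrin chain Itgax (CD11c) stood at 31.8, 55.7 and 44.1 CPM in remyelination libraries and 7.79, 6.62 and 9.80 CPM in naive libraries (2.45). The receptor Axl, which binds phosphatidylserine through a bridging ligand, stood at 164, 203 and 212 CPM in remyelination libraries and 22.9, 18.6 and 33.3 CPM in naive libraries (2.95). Groups of these 5 genes did not overlap. Further rises were those of Ch25h, which makes 25-hydroxycholesterol (3.09), the galectin Lgals3 (2.68), the fatty acid binding protein Fabp5 (2.54), the beta-glucan receptor Clec7a (1.86; 2.49 corrected), lipoprotein lipase Lpl (1.56), the growth factor Csf1 (1.41) and the cystatin Cst7 (1.19). In the peak-tamoxifen group minus the same naive libraries, Lpl (0.215) and Cst7 (0.288) did not pass. Apoe (1.91), Spp1 (1.12), Gpnmb (3.215), Itgax (1.80), Axl (2.54) and Ch25h (2.09) passed there.

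Of the 25 genes, 12 had a mean log2 CPM of 8 or more, where 64.6% of all genes were lower and the median was -0.44. Among the 8 lower members was the receptor Trem2. It stood at 1122, 1171 and 1091 CPM in remyelination libraries, against 1914, 1820 and 1723 CPM in naive libraries (-0.69 ± 0.08, edgeR adjusted p = 2.10e-07). The groups did not overlap, and the corrected value was -0.98. The tetraspanin Cd9 (-0.69) and the scavenger receptor Cd68 (-0.67) fell; the call of Cd9 was lost when corrected (-0.19). The cathepsins fell too, Ctsl at -0.75, Ctsz at -0.50, Ctsd at -0.49 and Ctsb at -0.31; for Ctsb the value was -0.17 (adjusted p = 0.137) without naive replicate 3 and -0.27 (adjusted p = 0.0755) with the 6 libraries alone. The chemokine Ccl6 fell by 0.57, but its corrected value was 0.00, and its call was also lost without naive replicate 2 (-0.44) and without remyelination replicate 1 (-0.54) or 3 (-0.54).

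At the end of cuprizone, in demyelination minus naive, all 25 were called higher (19.7% of all genes), with a median of 3.16. The smallest difference was that of Trem2 (0.30). Spp1 averaged 9.89 CPM in naive, 4710 CPM in demyelination and 137 CPM in remyelination libraries (SD 1.29, 1330 and 44.8, n = 3 each). Apoe averaged 833 CPM in naive, 54860 CPM in demyelination and 5865 CPM in remyelination libraries (SD 110.0, 8590 and 1700, n = 3 each). On this scale both genes in remyelination were closer to naive than to demyelination while still above naive.

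**Figure D3:**
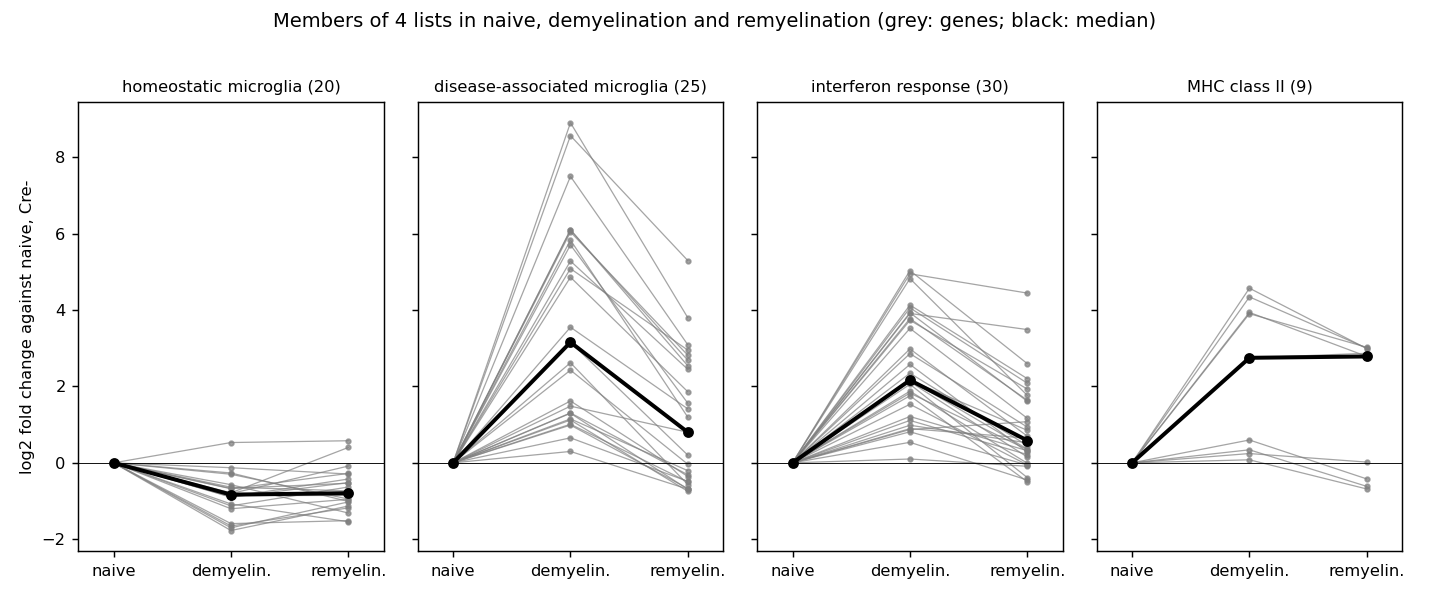
Log2 fold change against naive Cre- microglia (y axis) for the tested members of 4 gene lists in naive, demyelination and start-tamoxifen remyelination Cre- groups (x axis); grey lines are genes and the black line is the median, and both changes use the same naive libraries. The medians in demyelination and remyelination were 3.16 and 0.80 for the disease-associated list, 2.16 and 0.58 for interferon response genes, 2.75 and 2.78 for MHC class II and -0.83 and -0.79 for homeostatic genes. The class II medians fall on different genes, Ciita in demyelination and H2-Ab1 in remyelination. In remyelination minus demyelination 7 of the 9 class II genes were lower and 0 higher (28.3% and 26.3% of all genes), with a median of -0.96.

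MHC class II genes had 5 of 9 members higher and 3 lower in remyelination (28.8% and 27.4% of all genes), with a median of 2.78 against 0.08 over all genes. The 5 that rose were the chains of the surface molecules, the invariant chain and the transactivator. H2-Aa (ENSMUSG00000036594, GRCm38 chromosome 17, 34282744 to 34287823) stood at 154, 178 and 254 CPM in remyelination libraries, against 23.4, 32.3 and 17.4 CPM in naive libraries (3.00 ± 0.30, edgeR adjusted p = 2.04e-07). H2-Eb1 stood at 118, 142 and 189 CPM in remyelination libraries and 20.9, 21.8 and 12.6 CPM in naive libraries (3.02), and H2-Ab1 rose by 2.78. Cd74, the invariant chain that guides class II molecules to the endosome, stood at 679, 871 and 906 CPM in remyelination libraries, against 108, 107 and 94.8 CPM in naive libraries (2.99 ± 0.22, adjusted p = 2.26e-09). Ciita stood at 4.42, 3.91 and 6.63 CPM in remyelination libraries and 0.439, 0.716 and 0.825 CPM in naive libraries (2.87; 2.27 corrected). None of these 5 had overlapping groups. H2-DMb1, a chain of the endosomal molecule H2-DM that loads peptides, stood at 149.8, 143 and 138 CPM in remyelination libraries, against 209.7, 208 and 242 CPM in naive libraries (-0.62 ± 0.10, adjusted p = 8.46e-06). H2-DMa (-0.42) and H2-Oa (-0.68) fell too, and the call of H2-DMa was lost when corrected (-0.20). H2-DMb2 did not pass (0.02). No difference between these roles was tested. Border-associated macrophages and monocytes also express class II genes; their markers were higher in the same libraries, and their part in this result was not tested.

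MHC class I genes had a median of 0.01, with 7 of 15 higher and 2 lower (28.8% and 27.4% of all genes). Nlrc5, the class I transactivator, stood at 31.0, 33.3 and 30.9 CPM in remyelination libraries, against 7.46, 4.88 and 7.42 CPM in naive libraries (2.28 ± 0.21, edgeR adjusted p = 7.79e-09; 1.66 corrected). The class Ib genes H2-Q7 (2.36) and H2-Q4 (1.83) rose as well, but they are near-identical copies whose reads may have been split or lost in counting. Psmb8, a subunit of the immunoproteasome, fell by 0.48, a call lost when corrected (-0.17).

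Interferon response genes were partly higher. Of 30 tested, 17 rose and 1 fell (28.8% and 27.4% of all genes), with a median of 0.58 against 0.08 over all genes. Of the 17, 11 rose at least 2-fold (18.7% of all genes). Of the 30 genes, 3 had a mean log2 CPM of 6 to 8 and 0 had 8 or more. Scarcer genes were called at least 2-fold higher more often: 37.6% of all genes under a mean log2 CPM of 0 and 28.8% from 0 to 2. From 2 to 4 the share was 15.25%, and from 4 to 6 it was 7.24%. Oas2 stood at 7.75, 8.89 and 13.4 CPM in remyelination libraries, against 1.32, 0.610 and 0.891 CPM in naive libraries (3.49 ± 0.37, edgeR adjusted p = 6.96e-08). Oas3, which like Oas2 makes the second messenger of RNase L, stood at 2.26, 3.02 and 3.27 CPM in remyelination libraries and 0.0549, 0.185 and 0.0990 CPM in naive libraries (4.44 ± 0.52; 5.03 without naive replicate 2). Both genes were scarce in naive microglia and did not overlap. Ifi207, a nuclear protein of the HIN-200 family, stood at 16.5, 18.9 and 21.8 CPM in remyelination libraries, against 3.29, 3.23 and 2.97 CPM in naive libraries (2.60). Its relative Ifi204 rose by 1.64 (2.27 corrected), the membrane protein Ifitm3, which blocks viral entry, by 2.08, and the ADP-ribosyltransferase Parp14 by 1.08. Irf9, the DNA-binding subunit of the interferon-activated complex ISGF3, was the member that fell (-0.45). Isg15, a ubiquitin-like modifier, did not pass and stood at 6.58, 7.82 and 5.54 CPM in remyelination libraries and 5.87, 4.27 and 4.55 CPM in naive libraries (0.45, adjusted p = 0.0600). Ifit1, which binds viral RNA, stood at 3.24, 4.09 and 4.36 CPM in remyelination libraries and 3.40, 5.49 and 7.46 CPM in naive libraries (-0.50, adjusted p = 0.0825; 0.02 corrected). Each of these calls turned on a library: Isg15 passed without naive replicate 1 (0.60) or remyelination replicate 3 (0.55) and when corrected (0.54), and Ifit1 passed as lower without naive replicate 1 (-0.71). In demyelination minus naive 29 of the 30 were higher (19.7% of all genes), with a median of 2.16.

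Lipid efflux and storage genes had 10 of 18 members higher and 2 lower (28.8% and 27.4% of all genes), with a median of 0.40. Cd36, a scavenger receptor for oxidised lipids and fatty acids, stood at 25, 25.2 and 26.2 CPM in remyelination libraries, against 3.02, 2.49 and 2.04 CPM in naive libraries (3.36 ± 0.20, edgeR adjusted p = 4.10e-12). The 3 remyelination libraries lay close together, all above naive. Apoc1, a minor apolipoprotein, stood at 1.47, 3.20 and 0.923 CPM in remyelination libraries and 0.659, 0.265 and 0.297 CPM in naive libraries (2.33 ± 0.97, adjusted p = 0.0492); the call was lost when any of remyelination replicates 1 and 2 or naive replicates 2 and 3 was left out (1.66 to 2.44), and when corrected (2.12, adjusted p = 0.0769). Cholesterol biosynthesis genes, which make sterol for membranes, were mostly not called: 3 of 23 rose and 4 fell, with a median of 0.00. The sterol isomerase Ebp (-0.94), the demethylating enzymes Msmo1 (-0.81) and Nsdhl (-0.81) fell, and the regulator Srebf2 rose by 0.79, a call lost when corrected (0.16).

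Phagocytosis and complement genes moved both ways, 8 of 23 higher and 11 lower (28.8% and 27.4% of all genes), with a median of -0.20. Of the 23, 15 had a mean log2 CPM of 8 or more, where 64.6% of all genes were lower and the median was -0.44. C3, the central complement component, rose by 4.30, with 14.3, 44.2 and 35.2 CPM in remyelination libraries and 2.47, 1.72 and 0.792 CPM in naive libraries. The Fc receptor Fcgr3 stood at 1211, 1169 and 1097 CPM in remyelination libraries, against 2652, 2952 and 3045 CPM in naive libraries (-1.32 ± 0.10, edgeR adjusted p = 7.29e-11). The chains of C1q, the first complement component, were lower, C1qc at -0.89, C1qb at -0.80 and C1qa at -0.44. Lrp1, an endocytic receptor for Apoe and myelin debris, was called higher by 1.01, but its value turned to -0.08 when corrected (adjusted p = 0.392).

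Of the lysosomal genes 19 of 33 fell and 2 rose, with a median of -0.36 against 0.08 over all genes. A mean log2 CPM of 8 or more was found for 22 of the 33, and of all genes at that level 64.6% were lower, with a median of -0.44, so the fall of this list is not set apart from that of abundant genes. Ctss, a protease abundant in microglia, stood at 5495, 6055 and 5052 CPM in remyelination libraries, against 10090, 10670 and 9560 CPM in naive libraries (-0.87 ± 0.10, edgeR adjusted p = 1.38e-07). Corrected for GC content and length, the fall of Ctss was -0.35. The thioesterase Ppt1 (-0.67) and the ceramidase Asah1 (-0.84) fell too. With that correction 19 of the 33 genes were lower and 5 higher. At the end of cuprizone the same list had 21 members called above naive (19.7% of all genes).

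Of the inflammatory cytokines and chemokines, 4 of 16 rose and 4 fell, with a median of 0.35. These counts lay near the shares over all genes (28.8% higher and 27.4% lower). Il1b, an inflammasome-processed cytokine, stood at 91.0, 202 and 94.0 CPM in remyelination libraries, against 12.1, 7.84 and 8.08 CPM in naive libraries (3.81 ± 0.33, edgeR adjusted p = 5.34e-08). Its sister genes went the other way: Il1a stood at 199.5, 272 and 203 CPM in remyelination libraries and 392, 424 and 454 CPM in naive libraries (-0.91 ± 0.16), and Il18 fell by 0.88. The call of Il1a was lost when corrected (-0.25). The chemokine Ccl5 rose by 2.02. Remyelination replicate 2 had the highest Il1b and also the highest neutrophil marker sum, and neutrophils express Il1b; their part was not tested.

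Genes of the repair and growth factor list were higher in 10 of 15 and lower in 1 (28.8% and 27.4% of all genes), with a median of 1.55. Spp1 and Gpnmb, given above, are also on this list. Its summed level overlapped, at 2385 to 2932 CPM in remyelination and 2762 to 3174 CPM in naive libraries. Igf1 (ENSMUSG00000020053, GRCm38 chromosome 10, 87858265 to 87937042), a trophic factor for oligodendrocyte precursors, stood at 20.2, 29.9 and 19.2 CPM in remyelination libraries, against 2.63, 1.40 and 1.58 CPM in naive libraries (3.70 ± 0.29, edgeR adjusted p = 4.75e-09). It had averaged 322 ± 57.0 CPM (± SD, n = 3) in demyelination libraries. TGF-beta signalling genes, on which adult microglia depend, were higher in 12 of 16 and lower in 1 (28.8% and 27.4% of all genes). Their median was 0.74, and 8 were higher and 2 lower when corrected. The ligand Tgfb1 stood at 197, 190.2 and 191 CPM in remyelination libraries, against 111, 92.6 and 79.5 CPM in naive libraries (1.03 ± 0.10, adjusted p = 1.49e-08). The signal transducers Smad4 (2.05) and Smad3 (0.66) and the inhibitory Smad7 (2.05; 1.65 corrected) rose as well. Smad7 stood at 76.2, 81.4 and 78.8 CPM in remyelination libraries and 24.5, 15.9 and 17.1 CPM in naive libraries. Homeostatic genes kept by TGF-beta, such as P2ry12 and Tmem119, were lower in the same libraries.

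Immediate early genes, which also rise while tissue is dissociated, had 3 of 15 higher and 1 lower, with a median of 0.15. Over all genes 28.8% were higher and 27.4% lower. The nuclear receptor Nr4a1 stood at 43.2, 81 and 41.4 CPM in remyelination libraries, against 8.89, 5.17 and 9.47 CPM in naive libraries (2.83 ± 0.30, edgeR adjusted p = 2.63e-07). Fosl2 (1.18) and Jund (1.38) rose; Jund lost its call when corrected (0.49) and without remyelination replicate 2 (1.09, adjusted p = 0.0515). Egr1 fell by 0.67, a call lost without naive replicate 3 (-0.48, adjusted p = 0.0511).

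Cell cycle genes stayed near naive, with 2 of 27 higher, 4 lower (28.8% and 27.4% of all genes) and a median of -0.02. E2f1, a transcription factor of S-phase entry, rose by 0.96, and the replication genes Pcna (-0.60), Mcm3 (-0.47) and Tyms (-0.47) fell. Pcna lost its call when corrected (-0.04), and Tyms without naive replicate 2 (-0.40) or remyelination replicate 1 (-0.40) or 3 (-0.40). At the end of cuprizone 22 of the 27 genes were called above naive (19.7% of all genes).

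Nuclear genes of the respiratory chain were lower in 17 of 24, the other 7 not passing, with a median of -0.50. Over all genes 27.4% were lower and 28.8% higher. Of the 24 genes, 13 had a mean log2 CPM of 6 to 8, where 53.5% of all genes were lower and the median was -0.31. Uqcrfs1, the iron-sulphur subunit of complex III, stood at 46.8, 45.2 and 41.4 CPM in remyelination libraries, against 84.9, 89.8 and 71.6 CPM in naive libraries (-0.88 ± 0.10, adjusted p = 1.22e-07). Ndufb8 of complex I (-0.76) and Sdhb of complex II (-0.69) fell too. With GC content and length corrected the list still had 17 lower, and 1 higher. Housekeeping genes often used as internal standards moved the same way, 10 of 18 lower, 3 higher and a median of -0.39, among them Hprt (-1.01; -0.31 corrected), Vps29 (-0.92) and Psmb2 (-0.66). Glycolysis and hypoxia genes had 8 of 20 lower and 4 higher, with a median of -0.12 (4 lower with upper-quartile factors), including falls of Ldha (-0.60) and Eno1 (-0.64) and a rise of the oxygen sensor Egln3 (1.83); the fall of Bnip3 (-0.93) lost its call when corrected (-0.24).

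Genes of the miRNA machinery were higher in 8 of 13 and lower in 1 (28.8% and 27.4% of all genes), with a median of 0.46. Besides Dicer1 these were the Argonaute genes Ago2 (1.1) and Ago4 (0.97) and the GW182 gene Tnrc6c (1.42), all with long transcripts. With GC content and length corrected, 4 were higher and 2 lower and the median was 0.05, with Ago2 at 0.36 and Tnrc6c at 0.67.

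**Figure D4:**
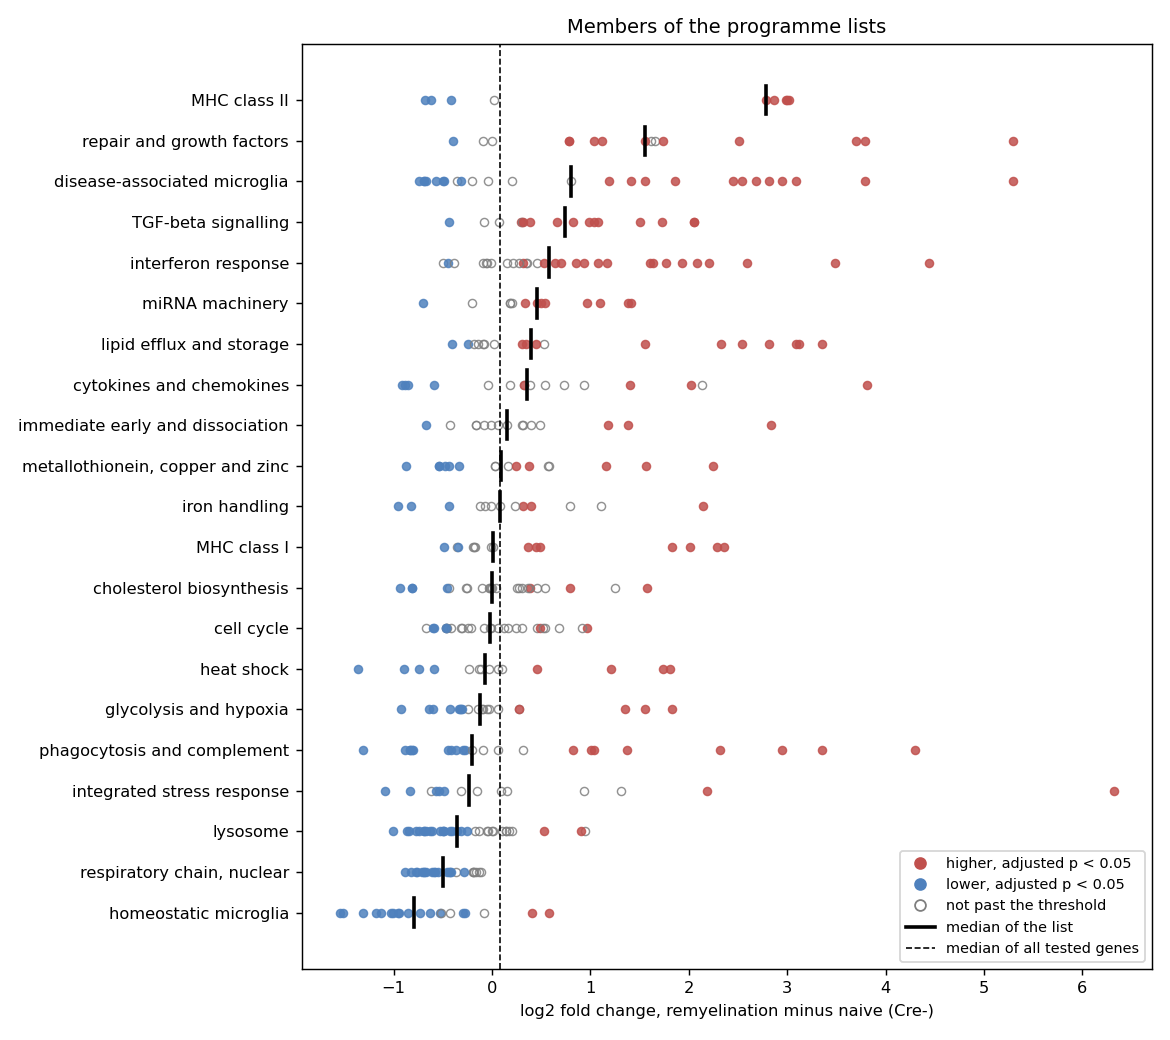
Log2 fold change of remyelination minus naive Cre- microglia (x axis) for each tested member of 21 gene lists (rows), red where higher and blue where lower at an adjusted p of 0.05, with list medians as bars and the median of all tested genes as a dashed line (0.08). MHC class II has the highest median (2.78) and homeostatic microglia the lowest (-0.79).

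Markers of several other cell types were higher in the remyelination libraries, while those of lymphocytes, neurons, astrocytes, oligodendrocytes and endothelial cells had overlapping sums. Over all genes 28.8% were called higher and 27.4% lower, and scarce genes rose more often. Under a mean log2 CPM of 0 the median was 1.05 and 37.8% were called higher. From 0 to 2 the median was 0.49 and 35.8% were called higher. No tested border-associated macrophage, monocyte, lymphocyte, precursor, neuronal, endothelial, mural or erythroid marker had a mean log2 CPM of 6 or more. Border-associated macrophages are the macrophages of the meninges and vessels. All 10 of their markers rose, with a median of 4.04, and their summed level was 390.2 to 446.5 CPM in remyelination libraries, against 21.5 to 29.2 CPM in naive libraries. Cd163 (ENSMUSG00000008845, GRCm38 chromosome 6, 124304656 to 124330527), a haemoglobin scavenger receptor, stood at 32.1, 32.1 and 31.6 CPM in remyelination libraries, against 0.275, 0.662 and 0.297 CPM in naive libraries (6.15 ± 0.34, edgeR adjusted p = 6.58e-12; 6.78 without naive replicate 2). Lyve1, a hyaluronan receptor, stood at 12, 7.29 and 10.6 CPM in remyelination libraries and 0.0549, 0.0795 and 0.132 CPM in naive libraries (6.65), the mannose receptor Mrc1 rose by 3.41 and the lectin Cd209f by 5.04. None of the 10 was at 0 in a remyelination library.

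Monocyte markers rose in 8 of 9, with a median of 3.62 and a summed level of 178 to 468 CPM in remyelination libraries, against 38.0 to 83.6 CPM in naive libraries. Ly6c2, the antigen of classical monocytes, stood at 10.9, 33.3 and 22.8 CPM in remyelination libraries and 0.823, 2.54 and 0.363 CPM in naive libraries (4.07; 5.35 without naive replicate 2). The chemokine receptor Ccr2 rose by 2.09, the integrin chain Itga4 by 3.97 and Plac8 by 3.62 (4.53 without naive replicate 2). The corrected and thinned values of Vcan, a matrix proteoglycan on both this list and that of oligodendrocyte precursors, were 1.67 and 2.76 beside 2.16.

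Neutrophil markers rose in 10 of 11, with a median of 3.13, but with a wide spread among the remyelination libraries. Their summed level was 543, 4117 and 1747 CPM in remyelination libraries, against 168, 492 and 165 CPM in naive libraries. S100a8, a calcium-binding alarmin, stood at 169, 1246 and 522 CPM in remyelination libraries, against 42.8, 146 and 37.0 CPM in naive libraries (3.09 ± 0.94, edgeR adjusted p = 0.0104). Without remyelination replicate 2 its value was 2.17 and no longer passed (adjusted p = 0.0673), without naive replicate 2 it was 4.04, and the list had 4 calls without remyelination replicate 2, with a median of 2.34. With the 6 libraries alone S100a8 was at 3.14 (adjusted p = 0.0659). S100a9 behaved alike (3.12; 2.14 without remyelination replicate 2 and 4.06 without naive replicate 2). The granule genes Mmp8 (7.88) and Retnlg (8.64), the surface antigen Ly6g (4.85) and the receptor Cxcr2 (4.19) rose also, by 6.97, 7.56, 3.61 and 3.21 without remyelination replicate 2. Leaving out naive libraries moved Ly6g to 5.63 (replicate 2) and 4.25 (replicate 3) and Cxcr2 to 4.81 (replicate 1).

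Lymphocyte markers were at the limit of detection: 9 of 12 were not tested for want of counts, none of the other 3 passed in edgeR (Nkg7 1.72, Cd79a 0.43, Klrb1c 0.09), and their sum was 1.08 to 1.87 CPM in remyelination libraries and 0.594 to 1.32 CPM in naive libraries. Nkg7 passed without naive replicate 1 (2.74). Oligodendrocyte markers had 4 of 11 higher and 2 lower, with a median of 0.82 and a sum of 204 to 231 CPM in remyelination libraries and 218 to 229 CPM in naive libraries; Ugt8a, which makes a myelin lipid, rose by 3.04 (2.45 without naive replicate 3) and Ermn by 1.74 (1.19 and not passing without remyelination replicate 1), and Cnp fell by 0.50. Precursor markers had 5 of 8 higher (median 1.45), with Cspg4 at 4.02 (2.95 corrected, 4.99 without naive replicate 2), Ptprz1 at 1.5 and Olig2 at 3.35. Olig2 rested on remyelination replicate 1 (1.91, adjusted p = 0.0687 without it) and was 7.23 without naive replicate 2. Their sum was 60.8 to 114 CPM in remyelination libraries and 23.2 to 33.3 CPM in naive libraries.

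Astrocyte markers had 6 of 11 higher and 1 lower, with a median of 0.89 and sums of 474 to 869 CPM in remyelination libraries, which overlapped the 454 to 592 CPM of naive libraries. Slc4a4 (3.01), Fgfr3 (1.76), Aldh1l1 (1.38) and Gfap (1.32) were among those that rose. Mural cell markers had 8 of 9 higher (median 1.84; 48.8 to 72.5 CPM in remyelination libraries, 9.17 to 26.8 CPM in naive libraries), including Pdgfrb (1.84), Vtn (1.81), Abcc9 (2.67; 3.55 without naive replicate 3) and Myh11 (3.15; 2.54 corrected, 4.37 without naive replicate 2). Endothelial markers had 6 of 10 higher and 1 lower (median 1.41; 82.2 to 135 CPM in remyelination libraries, 49.4 to 82.3 CPM in naive libraries), with Flt1 at 2.45, Cdh5 at 2.22, Kdr at 0.73 (0.53 and not passing without remyelination replicate 2) and a fall of Pecam1 (-0.93). Neuronal markers had 2 of 8 higher, Stmn2 (1.80) and Meg3 (1.45), each call lost without some of the libraries, and sums of 3.44 to 5.20 CPM in remyelination libraries and 3.23 to 5.27 CPM in naive libraries. Erythroid markers rose in 5 of 5 (median 2.36; 67.7 to 106 CPM in remyelination libraries, 6.14 to 32.7 CPM in naive libraries), with Hba-a1 at 2.45 and Alas2 at 1.48. The part of these other cells in the gene differences above was not tested. Whether scarce markers rose beyond the general rise of scarce genes was not tested either.

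**Figure D5:**
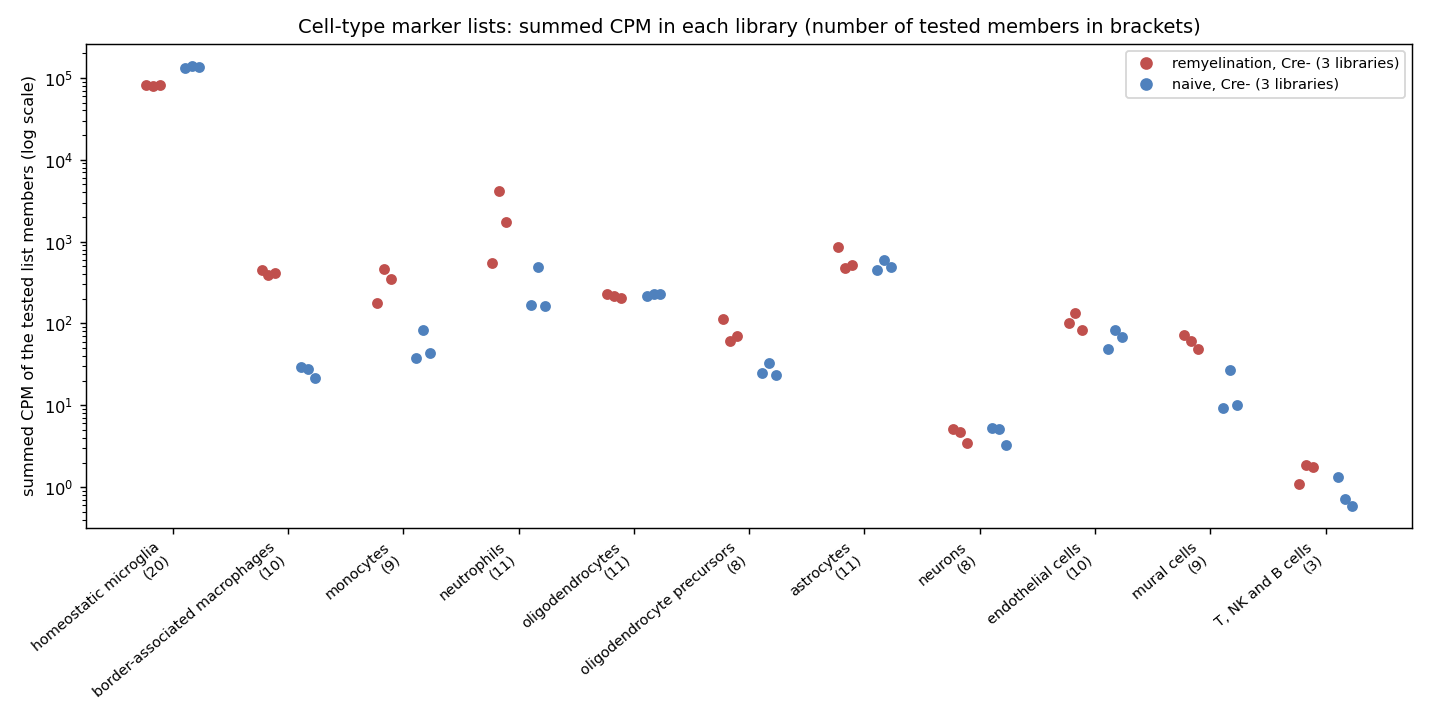
Summed CPM (y axis, log scale) of the tested members of 11 cell-type marker lists (x axis, number of members in brackets) in each remyelination (red, left) and naive (blue, right) Cre- library. Border-associated macrophage markers sum to 390.2 to 446.5 CPM in remyelination and 21.5 to 29.2 CPM in naive libraries, and neutrophil markers range widely, up to 4117 CPM in remyelination replicate 2.

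Set against demyelination, the remyelination libraries had 4628 genes higher (26.3%) and 4981 lower (28.3%), across the same split of library sets (5723 higher and 4075 lower with upper-quartile factors). The disease-associated list had 24 of 25 members lower than in demyelination, the other not passing. Cst7 stood at 30.7, 56.9 and 31.5 CPM in remyelination libraries, against 1093, 1136 and 743 CPM in demyelination libraries (-4.64 ± 0.25, adjusted p = 2.07e-11; -3.95 corrected). Spp1 differed by -5.11 ± 0.32 (-4.25 corrected) and Apoc1 by -6.23 ± 0.60, the other largest falls, and Apoc1 by -6.90 without remyelination replicate 2. Of interferon genes 25 of 30 were lower, and of MHC class II genes 7 of 9. Homeostatic genes had 7 higher and 4 lower: Tmem119 (0.68), P2ry13 (0.47) and Sall1 (1.19) rose, P2ry12 was at 0.08 without passing, and Fcrls (-0.74) fell. The largest rises were the mitochondrial genes mt-Co3 and mt-Atp6, which have a nuclear copy, and the gelatinase Mmp9. Mmp9, stored in neutrophil granules, stood at 15.8, 88.9 and 40.9 CPM in remyelination libraries, against 3.73, 7.20 and 8.75 CPM in demyelination libraries (2.88 ± 0.82, adjusted p = 0.00682); without remyelination replicate 2 it was 2.10 and no longer passed (adjusted p = 0.0505). TGF-beta signalling genes had 11 of 16 higher and 2 lower than in demyelination.

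The remyelination group with tamoxifen at the peak had library totals of 8.94 to 12.09 M counts. Of the 17579 genes, 96 were higher with tamoxifen at the start (0.546%) and 0 lower (0%), while 486 were lower at an unadjusted p under 0.05 and DESeq2 called 9 lower. Spp1 stood at 112, 188 and 110.1 CPM in the start group, against 17.8, 14.6 and 31.9 CPM in the peak group (2.68 ± 0.30, edgeR adjusted p = 0.000606). Il1b stood at 91.0, 202 and 94.0 CPM in the start group and 22.5, 30.6 and 17.1 CPM in the peak group (2.46 ± 0.32, adjusted p = 0.00116). Gpnmb stood at 23.6, 56.3 and 24.2 CPM in the start group and 4.07, 8.47 and 11.8 CPM in the peak group (2.08 ± 0.39, adjusted p = 0.0198), a call lost without start replicate 2 (1.54) and without peak replicate 1 (1.78) or 2 (2.10). For all 3 genes the lowest start library was above the highest peak library. Fitted to these 6 libraries alone, Spp1 (2.66, adjusted p = 0.121), Il1b (2.43, adjusted p = 0.237) and Gpnmb (2.06, adjusted p = 0.445) no longer passed. Of the 15 immediate early genes 12 were among the 96. Fos stood at 311, 699 and 436 CPM in the start group and 158, 149 and 172 CPM in the peak group (1.60), and the mRNA decay factor Zfp36 differed by 1.53. Neither Fos (0.15) nor Zfp36 (0.31) passed against naive. Of the other lists, 5 of 25 disease-associated genes were higher in the start group, as were 4 of 15 repair genes (0.546% of all genes). The same held for 3 of 16 cytokine and chemokine genes, 3 of 10 border-associated macrophage genes and 3 of 9 monocyte genes. The lipid efflux (18 genes), TGF-beta (16) and iron (13) lists had 2 each, and no other list had more than 1. Lists share genes, and Spp1 is on both the disease-associated and the repair list. The medians of the MHC class II and interferon lists were 0.18 and 0.30 in this comparison. In peak minus naive, with the same naive libraries, list medians were 0.215 for disease-associated genes, 0.228 for neutrophil markers and 0.301 for interferon genes. They were 2.469 for MHC class II, 3.289 for border-associated macrophage markers and -0.697 for homeostatic genes. P2ry12 averaged 4225 ± 294 CPM in the start group and 4605 ± 660.0 CPM in the peak group (± SD, n = 3 each; -0.12, adjusted p = 0.927). The 96 calls fell to 32 without start replicate 2, and to 33, 41 and 36 without peak replicates 1, 2 and 3.

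Whether the difference from naive was the same in mice with and without the recombinase was tested as an interaction, each genotype having its own naive libraries. The difference was larger (or less negative) in Cre- than in Cre+ mice for 1143 genes (6.5%) and smaller for 659 (3.75%). With upper-quartile factors, which put the median of all genes at -0.10 against 0.02, 723 were larger and 1084 smaller. Cell cycle genes had 15 of 27 larger in Cre- mice. Their median against naive was -0.02 in Cre- and -1.78 in Cre+ mice. The summed level of the 27 genes overlapped between genotypes in remyelination. It was 252, 296.5 and 281.1 CPM in Cre- and 278.1, 248 and 243.2 CPM in Cre+ remyelination libraries. In naive libraries it was 321.5, 321.4 and 346.7 CPM in Cre- and 291.7, 531.2 and 502 CPM in Cre+ mice. Chst2, a carbohydrate sulfotransferase, stood at 21.8, 30.9 and 22.9 CPM in remyelination and 1.70, 1.27 and 0.957 CPM in naive libraries of Cre- mice, and at 17.3, 29.6 and 25.1 CPM in remyelination and 11.5, 12.1 and 21.2 CPM in naive libraries of Cre+ mice (3.62 ± 0.67, edgeR adjusted p = 0.00319). Its remyelination levels overlapped and its naive levels did not. The coronin Coro2a (3.23) and Cebpb (4.26) were the other largest positive differences. The call of Cebpb (adjusted p = 0.0492) was lost under most other settings, for example at 4.23 with RLE factors (adjusted p = 0.0515). The largest negative ones were the chemokine receptor Ccr1 (-2.89), the sialic acid receptor Cd22 (-2.60) and the kinase Dapk1 (-2.46). Cd22 stood at 29.5, 39.3 and 31.5 CPM in remyelination and 18.7, 10.5 and 13.4 CPM in naive libraries of Cre- mice, and at 32.5, 35.2 and 31.1 CPM in remyelination and 0.842, 3.04 and 2.54 CPM in naive libraries of Cre+ mice. As with Chst2, the genotypes stood apart in naive and overlapped in remyelination. Apoe rose by 2.82 in Cre- and 4.59 in Cre+ mice, a difference of -1.77 ± 0.30 (edgeR adjusted p = 0.00113). Its remyelination levels overlapped, at 4941, 7824 and 4829 CPM in Cre- and 6061, 5216 and 4194 CPM in Cre+ mice. Its naive levels did not, at 959, 759 and 781 CPM in Cre- and 215, 192 and 238 CPM in Cre+ mice.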

How the data were processed

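Total RNA of sorted brain microglia was sequenced, and the authors deposited raw counts per gene, whole numbers per Ensembl gene and library. Per the submitters' processing notes, Trimmomatic 0.36, STAR 2.5.2b, featureCounts of Subread 1.5.2, DESeq2 and the build GRCm38 were used. How strand and multimapping reads were handled is not given in the sources used here. Overlapping genes, antisense genes and near-identical copies (Hspa1a and Hspa1b, H2-Q genes, Ifit3 and Ifit3b, mitochondrial genes with nuclear copies) are therefore uncertain. Symbols and positions came from GENCODE M21, in which 49056 of 49315 identifiers were found and 259 were not. Promoter sequences came from RefSeq on GRCm38.p6.

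The analysis used R 4.3.3, edgeR 4.0.16 and limma 3.58.1. After filterByExpr with the 8 groups 17579 genes were left. Group means of all 24 libraries were fitted together after TMM scaling, with robust quasi-likelihood dispersions and 16 residual degrees of freedom. Contrasts were tested with the 2-sided quasi-likelihood F test and Benjamini-Hochberg adjustment over all genes tested, at 0.05, and a second rule asked for at least 2-fold change (log2 of 1). Besides the 4 main comparisons, demyelination minus naive, peak minus naive and the Cre+ comparison were tested in the same fit. There were 34 gene lists: 21 of programmes, 2 technical and 11 of cell-type markers. Values are log2 fold changes, ± SE where given. Totals set the precision: 8.87 to 10.65 M counts in remyelination and 19.48 to 40.66 M counts in naive libraries. The series text calls the 3 samples of a group biological replicates, and p-values measure the spread between them. The procedure was also run on simulated data with known changes.

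The comparison, the members and the gene lists were chosen with earlier results of these data known. Named genes are Dicer1 and Cx3cr1, the 10 largest rises and 10 largest falls among called protein-coding genes that have an official symbol, average at least 3 on the log2 CPM scale and do not overlap between groups (without Y-linked, Xist, erythroid, immunoglobulin and T-cell receptor genes), 3 and 3 such genes for each other comparison (no overlap rule for the interaction), and, from each list, at most 4 members, those of smallest p. Further list members were named after their values were seen, to fill out their list. Some genes that this rule names are not reported here. Alternatives were RLE and upper-quartile factors, DESeq2 1.42.0 (Wald test, independent filtering off), no low-count filter, a mean log2 CPM of at least 3, only the libraries of a contrast, thinning of all libraries to 8873275 counts, correction for GC content and length, the replicate number as a block, and leaving out each replicate.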

Additional observations from a re-analysis of the deposited data

Results flagged for a closer look

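The interaction test marked 35 of the named genes, whose log2 difference of start-tamoxifen remyelination minus naive differed between Cre- and Cre+ mice (edgeR quasi-likelihood, adjusted p under the threshold; values are the change in Cre- minus that in Cre+). No cause was tested, and each genotype has its own naive libraries.

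The 15 genes with a more positive value in Cre- mice were, among transcription and growth regulators, Cebpb 4.26, E2f1 1.98, Tgfb1 0.82 and Smad7 0.82. Cebpb stood at 6.32 in Cre- and 2.06 in Cre+ mice, and E2f1 at 0.96 in Cre- and -1.02 in Cre+ mice. Genes of the miRNA machinery were Ago2 1.27, Tnrc6c 1.03, Dicer1 0.83 and Ago4 0.65, with Ago2 at 1.1 in Cre- and -0.17 in Cre+ mice. Others were Chst2 3.62, Coro2a 3.23, Plac8 2.97, Ano8 2.57, Slc40a1 0.86, Ctsl 0.78 and Lrp1 0.57, with Coro2a at 0.89 in Cre- and -2.34 in Cre+ mice.

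The 20 genes with a more negative value in Cre- mice included lipid and lysosomal genes, Apoe -1.77, Cst7 -1.17, Lpl -0.84, Ctsd -0.61, Ctsb -0.58 and Ebp -0.49. Apoe rose in both genotypes, by 2.82 in Cre- and 4.59 in Cre+ mice. Its levels overlapped between the genotypes in remyelination and stood apart in naive libraries. Antigen presentation and interferon genes were H2-Ab1 -1.17, H2-DMa -0.89, H2-DMb1 -0.52, Ifi207 -1.14 and Ifit1 -1.54. Ifit1 stood at -0.50 in Cre- and 1.05 in Cre+ mice. Receptors and surface genes were Ccr1 -2.89, Cd22 -2.60, Cd79b -2.0, Pecam1 -1.36, Fcrls -1.29 and Mrc1 -0.90. Fcrls stood at -1.31 in Cre- and -0.03 in Cre+ mice. The remaining genes were Dapk1 -2.46, Ccl6 -1.23 and Eno1 -0.61.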

How the results depend on the processing

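Most results kept their direction and their side of the threshold. With only genes of mean log2 CPM of at least 3, remyelination minus naive had 6466 calls, 2075 higher (32.1% of calls, against 51.2%), 645 at least 2-fold higher and 295 at least 2-fold lower, and remyelination minus demyelination had 2440 higher. At least 2-fold lower genes numbered 321 with upper-quartile factors, 844 with no low-count filter and 311 after thinning. Start minus peak had 224 calls with DESeq2 (215 higher, 9 lower), 244 with no filter (219 and 25), 180 with only its own libraries (163 and 17), and 1 lower with upper-quartile factors or with GC content and length corrected. With upper-quartile factors the interaction had 723 higher and 1084 lower, remyelination minus naive had a median of 0.18 over all genes, against 0.08, and lysosomal genes had 5 members higher.

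Leaving out each replicate gave ranges of 8963 to 9390 calls in remyelination minus naive (4475 to 4874 higher, 4413 to 4618 lower, 2895 to 3389 at least 2-fold higher, 353 to 634 at least 2-fold lower), 8499 to 9024 in remyelination minus demyelination (4009 to 4335 higher, 4440 to 4738 lower), 32 to 106 in start minus peak (32 to 105 higher, 0 to 2 lower) and 1120 to 1879 in the interaction (695 to 1240 higher, 425 to 647 lower).

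Signs turned for Ccr1 (0.14), Lrp1 (-0.077), Ccl6 (0.002) and Ifit1 (0.018) with GC content and length corrected, for Fos without remyelination replicate 2 (-0.24; range over left-out replicates to 0.36), and for Klrb1c, at the limit of detection, with no filter (-0.015), after thinning (-0.20) and without naive replicate 1 (-0.17), naive replicate 3 (-0.05) or remyelination replicate 3 (-1.73; range to 0.79). The cause was not tested. Over the gene-level values, that correction lost 12 calls of 201 besides the signs that turned, and DESeq2 lost 0.

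Same-numbered residuals of remyelination and naive libraries correlated at 0.03, 0.04 and 0.15, so the replicate numbers were not taken to pair samples. With the replicate block 9940 genes passed in remyelination minus naive, 9722 of them shared, with 9392 against demyelination, 103 against the peak group (4 lower) and 1780 in the interaction.

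Library set, depth and state coincide, and no alternative separates them. Remyelination libraries hold fewer counts, so scarce genes there rest on few reads. Some large rises rest on few reads in the naive libraries, with counts of 1 to 4 for Lyve1, 2 to 6 for Retnlg and 3 to 7 for Mmp8. Cells of other types cannot be separated from microglia in these bulk counts.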

Other observations

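Stress, metal and mitochondrial genes were measured in the same libraries, with no explanation tested for their differences. Heat shock genes had 4 of 14 members higher and 4 lower in remyelination than in naive microglia (median -0.07). Over all genes 28.8% were higher and 27.4% lower. Hspa5, the chaperone of the endoplasmic reticulum, stood at 606, 649.7 and 654 CPM in remyelination libraries, against 1399, 1692 and 1821 CPM in naive libraries (-1.36 ± 0.12, edgeR adjusted p = 1.49e-09). Dnaja1 (-0.89) and Hspd1 (-0.59) fell too, and Hspa1b, a stress-induced chaperone with the near-identical copy Hspa1a, stood at 825, 852 and 834 CPM in remyelination libraries and 257, 196 and 261 CPM in naive libraries (1.81). Integrated stress response genes had 2 of 14 higher and 5 lower (median -0.23), with Nupr1 at -1.08, Ddit3 at -0.83 and Ddit4 at 2.18.

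Counts of copper, zinc and iron genes lay near the shares over all genes (28.8% higher and 27.4% lower). Of 16 metallothionein, copper and zinc genes 5 rose and 6 fell (median 0.09). Slc30a1, a zinc exporter, stood at 17.7, 14.0 and 14.4 CPM in remyelination libraries, against 5.82, 2.28 and 2.08 CPM in naive libraries (2.24 ± 0.32, edgeR adjusted p = 5.92e-06). The zinc importer Slc39a1 rose by 1.16, and the copper chaperone Ccs (-0.88) and the copper regulator Commd1 (-0.54) fell. Iron genes had 3 of 13 higher and 3 lower (median 0.08). The copper-dependent ferroxidase Cp stood at 30.9, 22.3 and 22.2 CPM in remyelination libraries, against 6.20, 7.23 and 3.56 CPM in naive libraries (2.15), while the iron exporter Slc40a1 (-0.82), Hfe (-0.96) and Aco1 (-0.44) fell. Aco1 lost its call without naive replicate 3 (-0.28, adjusted p = 0.101).

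Of 13 mitochondrially encoded genes, 7 rose and 2 fell (28.8% and 27.4% of all genes). Their median was 0.37, and 0 fell with upper-quartile factors. The rises were largest in a run of neighbouring genes. In remyelination libraries mt-Co3, a subunit of cytochrome c oxidase, stood at 72.0, 83.0 and 56.9 CPM, against 0.659, 1.17 and 0.495 CPM in naive libraries (6.43 ± 0.24, edgeR adjusted p = 1.52e-15). Likewise mt-Atp6 rose by 6.33, mt-Co2 by 6.11 and mt-Atp8 by 6.99 (7.58 without naive replicate 2, 6.17 corrected). The unprocessed pseudogene Gm28437 on chromosome 1 stood at 119, 144 and 104 CPM in remyelination libraries, against 8.62, 7.23 and 3.89 CPM in naive libraries. In the peak-tamoxifen group mt-Co3 stood at 84.9, 86.7 and 72.9 CPM, against 3.23, 1.72 and 1.80 CPM in demyelination libraries, so its level followed the library sets, which cannot be told apart from the state.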
